A study of Mus musculus with 4 samples.

Results

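Transcripts of the proteasome and of the machinery that loads peptides onto MHC class I were compared across 4 sorted mouse spleen dendritic cell (DC) subsets. The genes are those whose symbol in the array annotation starts with Psm, a letter from a to g and a digit, together with 11 listed genes, B2m, Tap1, Tap2, Tapbp, Tapbpl, Erap1, Pdia3, H2-K1, H2-D1, Nlrc5 and Lnpep. This choice gave 59 of the 18193 genes that could be named, read by 132 probe sets, and for each gene the probe set brightest on average (mean log2 signal) was taken. Of the 59 genes, 49 have a Psm name and 10 are listed genes, since no probe set used here names Lnpep alone. Within the Psm names there are 31 constitutive proteasome subunits, 4 immunoproteasome genes (Psmb8, Psmb9, Psmb10 and Psme1), 3 other activators or inhibitors, 7 assembly chaperones and 2 tissue-specific subunits. The other 2, Psmc3ip and Psme3ip1, match by name but are not subunits. Psme2, the partner of Psme1, is read only by a probe set shared with the retrogene Psme2b and is described apart.

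The study hybridised RNA of DCs sorted as CD8+CX3CR1+, CD8+CX3CR1-, CD4+ or DN, 1 array per subset, where DN in this field usually stands for cells with neither CD4 nor CD8. All cells came from spleens of Cx3cr1gfp/+ C57BL/6 mice, in which green fluorescent protein replaces 1 copy of the chemokine receptor gene Cx3cr1, and none had been treated with BMP4. The spleens were digested with collagenase D, CD11c+ cells were enriched on magnets and those with high CD11c were sorted. The sources used here give neither the gates, the age and number of mice nor any pooling, and all groups carry 1 intact copy of Cx3cr1. On the arrays whose titles name CD8+CX3CR1- and DN cells, another label field names other subsets. Groups follow the titles, with which the signals of Cd8a, Cx3cr1 and Cd4 go.

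With 1 array per subset there is no replicate check, and every difference below describes 2 arrays. MAS5 signal is given on its linear scale, and signals under a floor of 55.7 were raised to it. The floor is the 90th percentile of the signals of smell, taste and pheromone receptors and of keratin-associated proteins, genes with no known place in spleen. A gene is called detected when at least 1 array lies above the floor, which held for 12608 genes, and 2-fold is the threshold for counting a difference. As these are bulk samples scaled to a common mean, fewer expressing cells and less RNA per cell cannot be told apart.

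The proteasome is a barrel of alpha and beta rings, capped by a regulatory particle whose base unfolds ubiquitin-tagged proteins and whose lid removes the ubiquitin. Interferon gamma induces replacements for the catalytic beta subunits, Psmb9 for Psmb6, Psmb10 for Psmb7 and Psmb8 for Psmb5, and the barrel made with them is the immunoproteasome, which immune cells also carry at rest. Its peptides are pumped into the endoplasmic reticulum by Tap1 and Tap2, trimmed by Erap1 and placed on MHC class I chains with help from Tapbp and Pdia3. CD8+ DCs of mouse spleen are known for presenting peptides of engulfed material on MHC class I, a process called cross-presentation.

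All 5 pan-DC markers (Itgax, Flt3, Zbtb46, H2-Aa and Cd74) lay above the floor on all 4 arrays. On the 4 arrays the share of probe sets that passed the floor ranged from 41.0% to 47.6%, highest in CD4+ DCs. For CD4+ DCs the 3'/5' ratio of the Gapdh controls, which rises as RNA integrity falls, was 11.8, against 7.56 to 8.98 on the other arrays. The same ratio of the actin controls was 2.86 in CD4+ DCs, 2.32 in CD8+CX3CR1+ DCs and 2.235 in DN DCs. It was lowest in CD8+CX3CR1- DCs, at 1.79. The part of RNA integrity in the differences below was not tested. Among 11 CD8 DC markers on the array, 9 lay above the floor in CD8+CX3CR1+ DCs, where Xcr1 and Ly75 did not, against 11 in CD8+CX3CR1- DCs, 8 in CD4+ DCs and 9 in DN DCs. Their summed signal was 8600 in CD8+CX3CR1+ DCs, 40583 in CD8+CX3CR1- DCs, 4255 in CD4+ DCs and 11095 in DN DCs. Of the 11, 9 were at least 2-fold lower in CD8+CX3CR1+ than in CD8+CX3CR1- DCs (5.81% of all detected genes). At least 4-fold lower were 7, where 2.82% of all detected genes were 4-fold apart in either direction. The median log2 difference of the 11 was -3.24.

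Several of these genes stand close together in the genome, and the start regions of 5 of them are shown because their transcripts carry the comparisons that follow. Each window runs from 250 bases before the gene's start to 50 bases after it, in the gene's own direction, with RefSeq sequence and coordinates of GRCm38.p6. Such windows were at hand for 48 of the 59 genes. In Tap1, at chr17:34187306-34187605 on the plus strand, the capitals mark the first 25 bases, which lie within Psmb9. Psmb9 starts 226 bases upstream on the other strand, so that the windows of the 2 genes overlap by 275 bases. Capitals elsewhere mark motif matches. In Psmb8, at chr17:34197945-34198244 on the plus strand, they mark a gamma-activated site, which STAT factors bind. In Psme1, at chr14:55578244-55578543 on the plus strand, they mark an interferon-stimulated response element core overlapping an Ets-IRF composite element. In Psmb5, at chr14:54617946-54618245 on the minus strand, they mark a core of the antioxidant response element. In B2m, at chr2:122147437-122147736 on the plus strand, they mark an interferon-stimulated response element core.
Tap1: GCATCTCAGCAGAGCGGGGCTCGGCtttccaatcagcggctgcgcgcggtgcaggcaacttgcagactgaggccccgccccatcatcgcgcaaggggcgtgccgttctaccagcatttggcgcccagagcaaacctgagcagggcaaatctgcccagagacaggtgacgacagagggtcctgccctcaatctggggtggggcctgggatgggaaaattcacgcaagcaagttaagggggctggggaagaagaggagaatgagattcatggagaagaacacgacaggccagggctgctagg
Psmb8: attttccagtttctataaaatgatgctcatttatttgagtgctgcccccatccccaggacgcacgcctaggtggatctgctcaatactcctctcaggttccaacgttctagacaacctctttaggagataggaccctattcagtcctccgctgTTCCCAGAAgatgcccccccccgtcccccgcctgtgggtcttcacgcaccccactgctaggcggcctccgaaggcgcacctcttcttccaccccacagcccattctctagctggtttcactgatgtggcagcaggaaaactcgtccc
Psme1: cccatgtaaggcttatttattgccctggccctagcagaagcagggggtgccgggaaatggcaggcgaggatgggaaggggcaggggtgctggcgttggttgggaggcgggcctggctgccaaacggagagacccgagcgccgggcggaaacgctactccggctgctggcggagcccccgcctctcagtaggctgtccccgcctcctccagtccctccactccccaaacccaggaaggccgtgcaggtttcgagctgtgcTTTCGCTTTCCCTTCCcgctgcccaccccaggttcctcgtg
Psmb5: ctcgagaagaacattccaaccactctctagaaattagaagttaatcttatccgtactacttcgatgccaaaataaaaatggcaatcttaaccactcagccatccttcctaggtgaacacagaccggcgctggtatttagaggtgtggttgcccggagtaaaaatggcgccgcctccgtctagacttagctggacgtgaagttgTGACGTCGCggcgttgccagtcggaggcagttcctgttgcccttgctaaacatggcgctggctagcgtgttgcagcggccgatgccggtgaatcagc
B2m: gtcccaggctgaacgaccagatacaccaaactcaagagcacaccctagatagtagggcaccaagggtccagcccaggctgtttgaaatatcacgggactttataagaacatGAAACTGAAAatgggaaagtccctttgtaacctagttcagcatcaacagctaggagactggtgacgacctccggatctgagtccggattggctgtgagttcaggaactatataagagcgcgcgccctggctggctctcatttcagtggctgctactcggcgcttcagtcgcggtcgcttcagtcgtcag

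The motifs were searched on both strands with these letters, N being any base. The interferon-stimulated response element core was GAAA, any 2 bases and GAAA, and the Ets-IRF composite element GGAA, any 2 bases and GAAA. The gamma-activated site was TTCNNNGAA and the antioxidant response element core TGACNNNGC. For the set, genes with a match in any of their windows were counted, and for the background single windows, so the 2 shares differ in unit. The first motif stood in 7 of the 48 genes (14.6%), B2m, Erap1, Psmb3, Psmd4, Psmd9, Psme1 and Psmg4, and in 3.44% of all 32851 windows. The second stood in 2 genes, Psmc2 and Psme1, and in 2.72% of all windows. In Psme1 the first motif covers bases 10 to 19 after the start and the second bases 16 to 25. The gamma-activated site stood in 3 genes, Psmb8, Psmd2 and Psmg1, and in 8.3% of all windows, and in Psmb8 it covers bases -97 to -89. The antioxidant response element core stood in 8 genes, among them Psmb5, Psmb6, H2-K1 and Pdia3, and in 12.4% of all windows. A match describes letters in a window and nothing of a factor's binding.

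Most of these transcripts had their highest signal in CD8+CX3CR1- DCs. Of the 57 genes above the floor on all 4 arrays, 39 (68.4%) were highest there, 9 in DN DCs, 7 in CD4+ DCs and 2, Psmd5 and Psme3ip1, in CD8+CX3CR1+ DCs. Among all 7761 genes above the floor on all arrays, 31.4% were highest in CD8+CX3CR1- DCs, 17.7% in DN DCs, 25.4% in CD4+ DCs and 25.5% in CD8+CX3CR1+ DCs. Most of these genes are bright, and of the 44 with a mean signal of at least 500, 29 (65.9%) were highest there, against 36.6% of the 2878 genes that bright. The lowest signal lay in CD8+CX3CR1+ DCs for 26 of the 57 genes (22.2% of the 7761) and in CD4+ DCs for 17 (27.5% of the 7761). The differences were small. Only 8 of the 57 genes (14.0%) spanned 2-fold or more from the lowest to the highest array, against 31.9% of the 7761, and the median span was 1.61-fold against 1.70-fold. With the signal averaged over each gene's probe sets, 25 of 46 genes (54.3%) were highest in CD8+CX3CR1- DCs, against 30.8% of all 5770 genes above the floor under the same averaging.

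**Figure D1:**
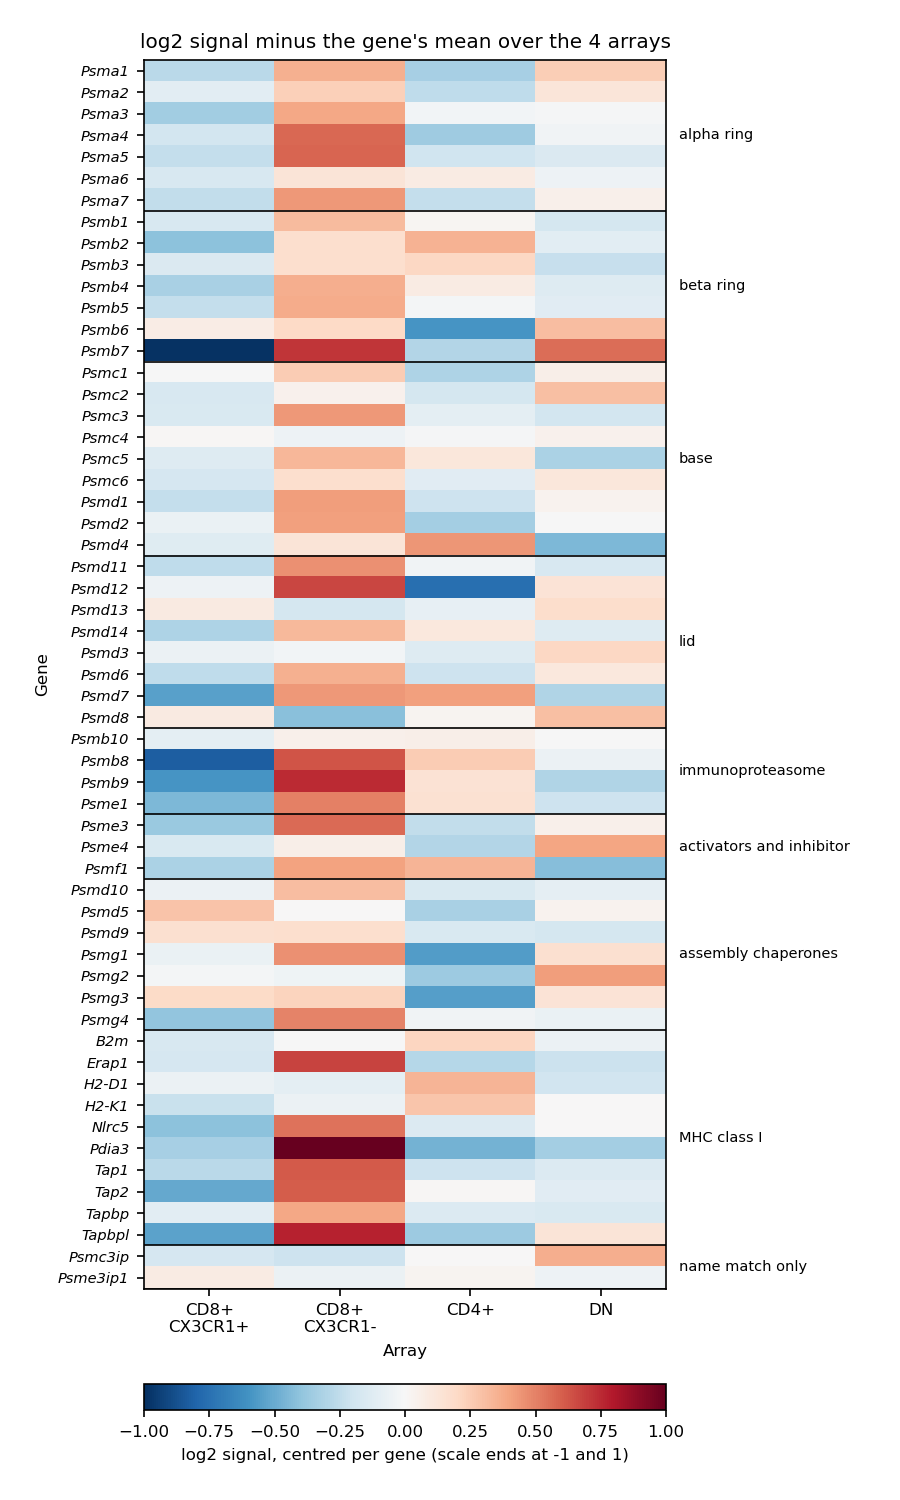
log2 signal of the 57 genes above the floor on all 4 arrays, each gene centred on its own mean over the arrays (columns), with the genes (rows) grouped by role and the colours ending at -1 and 1. The CD8+CX3CR1- column is the highest for 39 of the 57 genes, and, as deposited, for all 7 genes of the alpha ring (4 of 7 with quantile normalization).

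In CD8+CX3CR1+ DCs against CD8+CX3CR1- DCs, 0 of the 58 detected genes were at least 2-fold higher, against 7.72% of all detected genes, and 6 were at least 2-fold lower, against 5.81%. The 6 were Psmb7, Pdia3, Psmb8, Psmb9, Tapbpl and Tap2, and 0 of them has a second probe set above the floor on all 4 arrays. The number past 2-fold was thus 10.3% of the set, against 13.5% of all detected genes in both directions. The sign was more one-sided than the size. Of the 58 differences 49 were below 0 and 9 above, with a median of -0.51 (log2), while all detected genes had a median of 0.0. Of the 12608 detected genes 5247 were below 0 and 5461 above. Among genes with a mean signal of at least 500, 39 of the 44 in the set were below 0, with a median of -0.54. Of all 2878 genes that bright 1577 were below 0, with a median of -0.07.

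In CD8+CX3CR1- DCs against CD4+ DCs, 5 genes were at least 2-fold higher (6.78% of all detected genes) and 0 lower (9.11% of all). The 5 were Pdia3, Psmd12, Tapbpl, Psmg1 and Psmb7. The median of the 58 differences was 0.38, with 45 above 0, against a median of -0.01 over all detected genes. Of the 12608 detected genes 5242 were above 0 and 6396 below. Among genes with a mean signal of at least 500, 34 of the 44 in the set were above 0, against 1588 of all 2878. Scaled to an equal median instead, 16 of these genes were at least 2-fold higher, but that scaling moved the median of all genes above the floor on all arrays by itself, to 0.35 from 0.02, and put 12.7% of all detected genes past 2-fold upwards.

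CD8+CX3CR1+ and CD4+ DCs lay closer together for these genes. None was at least 2-fold higher in CD8+CX3CR1+ DCs (4.47% of all detected genes were), 1, Psmb8, was lower (4.89% of all), and the median was -0.05. With each array scaled to an equal median the log2 difference of Psmb8 was -0.75 instead of -1.08, short of 2-fold. Against DN DCs, 0 genes were at least 2-fold higher in CD8+CX3CR1+ DCs (2.97% of all) and 1, Psmb7, was lower (2.93% of all). In CD8+CX3CR1- DCs against DN DCs 2 genes, Pdia3 and Psmb9, were at least 2-fold higher (4.75% of all) and 0 lower (6.17% of all). Between CD4+ and DN DCs 0 genes were past 2-fold in either direction, against 4.34% of all detected genes higher and 3.23% lower in CD4+ DCs. No gene of the set was 4-fold apart in any of the 6 pairs, while 2.82%, 2.98%, 0.769%, 0.412%, 2.02% and 0.254% of all detected genes were, taking the pairs in the order above. Pairs that share an array are not independent of each other.

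**Figure D2:**
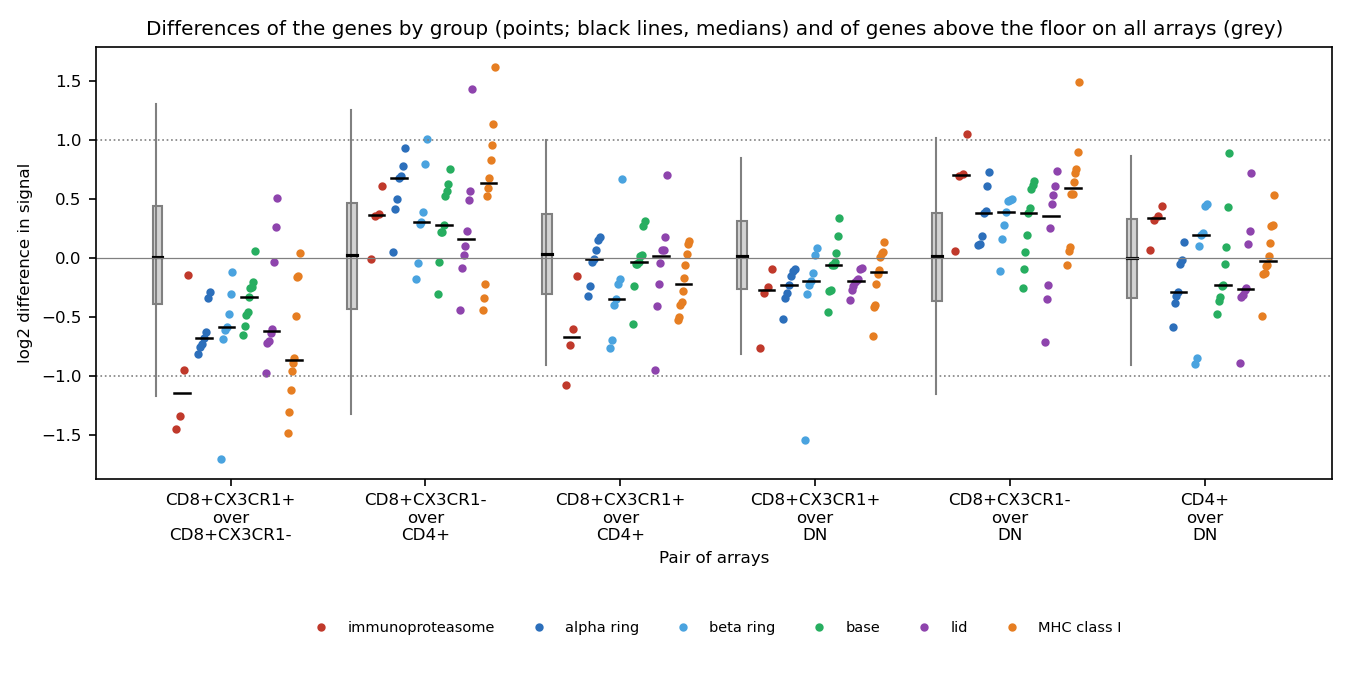
log2 difference in signal (first named array minus the second) in the 6 pairs of arrays, with a point per gene coloured by role and a black line at each group's median. The grey box gives the 25th to 75th percentile, and the grey line the 5th to 95th, of the 7761 genes above the floor on all arrays. In the first pair all 4 immunoproteasome genes and all genes of the alpha and beta rings lie below 0, and in the third pair the immunoproteasome genes alone keep a median under -0.5.

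The immunoproteasome genes were lowest in CD8+CX3CR1+ DCs, all 4 of them, and 3 of the 4 were highest in CD8+CX3CR1- DCs. Psmb8, the inducible subunit with chymotrypsin-like activity, gave a signal of 1530 in CD8+CX3CR1+ DCs, 4194 in CD8+CX3CR1- DCs, 3237 in CD4+ DCs and 2597 in DN DCs. It was thus 2.74-fold lower in CD8+CX3CR1+ than in CD8+CX3CR1- DCs, and 2.12-fold lower than in CD4+ DCs. Its other probe set is dim, with 46.7 (a value below the floor) in CD8+CX3CR1+ DCs, against 199 in CD8+CX3CR1- DCs, 89.6 in CD4+ DCs and 124 in DN DCs.

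Psmb9, which takes the place of the caspase-like subunit and shares its start region with Tap1, had 2808 in CD8+CX3CR1+ DCs, 7126 in CD8+CX3CR1- DCs, 4676 in CD4+ DCs and 3445 in DN DCs. It was 2.54-fold lower in CD8+CX3CR1+ than in CD8+CX3CR1- DCs and 1.67-fold lower than in CD4+ DCs. Its signal in CD8+CX3CR1- DCs was 2.07-fold that in DN DCs. Psme1, a subunit of the interferon-induced activator that opens the barrel's gate, followed the same order, with 3345 in CD8+CX3CR1+ DCs, 6486 in CD8+CX3CR1- DCs, 5088 in CD4+ DCs and 3976 in DN DCs. The probe set shared by Psme2 and Psme2b had 2893, 5243, 4413 and 4097 in the same order of arrays, and was 1.81-fold lower in CD8+CX3CR1+ than in CD8+CX3CR1- DCs.

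Psmb10, the inducible subunit with trypsin-like activity, was nearly level. It had 1636 in CD8+CX3CR1+ DCs, 1814 in CD8+CX3CR1- DCs, 1824 in CD4+ DCs and 1743 in DN DCs, a span of 1.12-fold. The 3 inducible catalytic subunits thus did not differ by like amounts, with log2 differences between CD8+CX3CR1+ and CD8+CX3CR1- DCs of -1.45 for Psmb8, -1.34 for Psmb9 and -0.15 for Psmb10.

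**Figure D3:**
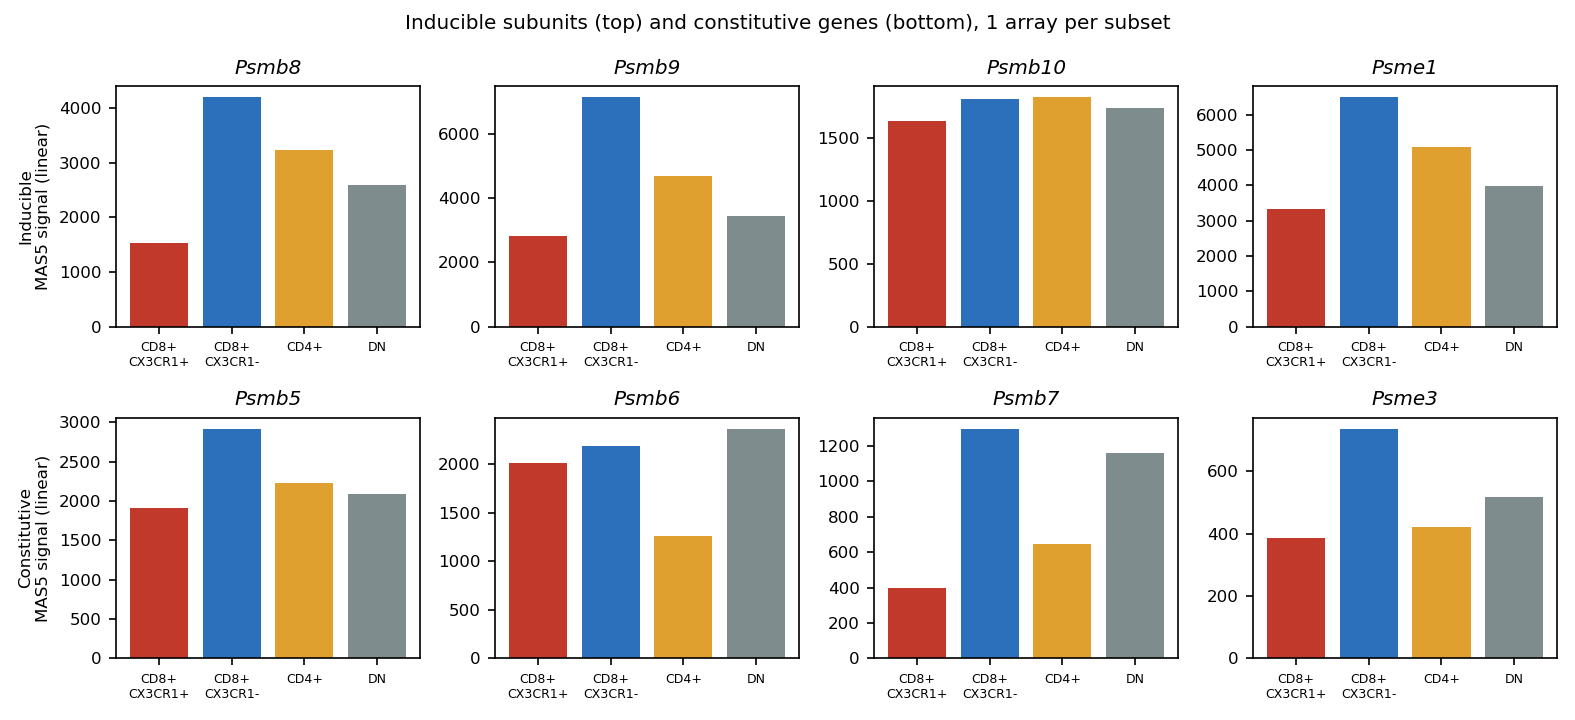
MAS5 signal (linear, each panel on its own scale from 0) on the 4 arrays, 1 bar per array, for the inducible genes Psmb8, Psmb9, Psmb10 and Psme1 (top) and for Psmb5, Psmb6, Psmb7 and Psme3 (bottom). Psmb8, Psmb9 and Psme1 share the order CD8+CX3CR1-, CD4+, DN, CD8+CX3CR1+ from high to low, Psmb10 spans 1.12-fold, and Psmb7 is lowest in CD8+CX3CR1+ DCs at 398.

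The constitutive catalytic subunits had patterns of their own. Psmb5, the partner that Psmb8 replaces, had 1909 in CD8+CX3CR1+ DCs, 2916 in CD8+CX3CR1- DCs, 2230 in CD4+ DCs and 2086 in DN DCs. Psmb6, replaced by Psmb9, had 2012 in CD8+CX3CR1+ DCs, 2194 in CD8+CX3CR1- DCs, 1266 in CD4+ DCs and 2365 in DN DCs, and so was lowest in CD4+ DCs. Psmb7, replaced by Psmb10, had 398 in CD8+CX3CR1+ DCs, 1297 in CD8+CX3CR1- DCs, 645 in CD4+ DCs and 1161 in DN DCs. That is the largest difference of the set between CD8+CX3CR1+ and CD8+CX3CR1- DCs, 3.26-fold lower. Psmb7 was also 2.92-fold lower in CD8+CX3CR1+ than in DN DCs, and 2.01-fold higher in CD8+CX3CR1- than in CD4+ DCs. Each of these 3 genes has 1 probe set, so none of the values could be set against a second reading.

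Within each couple, the constitutive partner's log2 difference was taken from that of the inducible member. Between CD8+CX3CR1+ and CD8+CX3CR1- DCs this gave -0.84 for Psmb8 and Psmb5. It was -1.22 for Psmb9 and Psmb6 and 1.56 for Psmb10 and Psmb7, where the constitutive partner carried the larger difference. Between CD8+CX3CR1+ and CD4+ DCs the same quantity was -0.86 for Psmb8 and Psmb5, -1.40 for Psmb9 and Psmb6, and 0.54 for Psmb10 and Psmb7. The couples therefore did not shift in 1 direction.

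Taken as groups, the 4 immunoproteasome genes had a median log2 difference of -1.15 between CD8+CX3CR1+ and CD8+CX3CR1- DCs, and the 31 constitutive subunits had -0.58. Between CD8+CX3CR1+ and CD4+ DCs the immunoproteasome median was -0.67 and the constitutive one -0.04. Between CD8+CX3CR1- and CD4+ DCs both groups were higher in CD8+CX3CR1- DCs by like amounts, 0.36 and 0.39. In CD4+ over DN DCs the immunoproteasome genes had a median of 0.34 and the constitutive ones -0.23. The gap between the groups was thus -0.57 and -0.63 in the comparisons of CD8+CX3CR1+ DCs with CD8+CX3CR1- and CD4+ DCs, and -0.08 in their comparison with DN DCs.

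As deposited, all 7 genes of the alpha ring, which forms the gate of the barrel, were highest in CD8+CX3CR1- DCs. With quantile normalization this held for 4 of the 7, without Psma1, Psma2 and Psma6, and with probe sets averaged it held for 5 of 6. In CD8+CX3CR1+ against CD8+CX3CR1- DCs their median was -0.68, and the differences ran from -0.82 for Psma5 to -0.29 for Psma6. Psma5 had 1985 in CD8+CX3CR1+ DCs, 3494 in CD8+CX3CR1- DCs, 2039 in CD4+ DCs and 2117 in DN DCs. By its brightest probe set Psma6 was flatter, with 2985 in CD8+CX3CR1+ DCs, 3646 in CD8+CX3CR1- DCs, 3530 in CD4+ DCs and 3217 in DN DCs. A second bright probe set of Psma6 was lowest in CD4+ DCs, at 1519, against 2415 to 2621 on the other arrays. A dimmer probe set was highest in DN DCs, at 436.5. In CD8+CX3CR1- over CD4+ DCs the second bright one gave 0.79 and the dimmer one -0.21 (log2). In CD8+CX3CR1- over CD4+ DCs the ring's median was 0.68, from 0.05 for Psma6 to 0.93 for Psma4, which had 1417 in CD8+CX3CR1+ DCs, 2398 in CD8+CX3CR1- DCs, 1255 in CD4+ DCs and 1574 in DN DCs. Between CD8+CX3CR1+ and CD4+ DCs the alpha ring was level, with a median of -0.01 and a range from -0.32 for Psma3 to 0.18 for Psma4.

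The 7 constitutive genes of the beta ring were likewise all below 0 in CD8+CX3CR1+ against CD8+CX3CR1- DCs, with a median of -0.58. Of these 7, 4 were highest in CD8+CX3CR1- DCs. Psmb2, a structural subunit, was highest in CD4+ DCs, with 517 in CD8+CX3CR1+ DCs, 774 in CD8+CX3CR1- DCs, 876 in CD4+ DCs and 639 in DN DCs. It was the lowest of the ring in CD8+CX3CR1+ against CD4+ DCs (-0.76), and Psmb6 was the highest there (0.67).

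In the base, which holds the unfolding ATPases Psmc1 to Psmc6, the median was -0.33 in CD8+CX3CR1+ against CD8+CX3CR1- DCs, and 8 of the 9 genes were below 0. The lowest was Psmd1, a scaffold of the base, with 1163 in CD8+CX3CR1+ DCs, 1835 in CD8+CX3CR1- DCs, 1190.1 in CD4+ DCs and 1408 in DN DCs. The ATPase gene Psmc4 was the flattest of the 57, with 944 in CD8+CX3CR1+ DCs, 907 in CD8+CX3CR1- DCs, 931 in CD4+ DCs and 968 in DN DCs. The ubiquitin receptor gene Psmd4 was highest in CD4+ DCs, with 2566 in CD8+CX3CR1+ DCs, 3053 in CD8+CX3CR1- DCs, 3778 in CD4+ DCs and 2037 in DN DCs. Psmd2, another scaffold, had the largest difference of the base in CD8+CX3CR1- over CD4+ DCs, 1.68-fold, and in CD8+CX3CR1+ over CD4+ DCs the base ran from -0.56 for Psmd4 to 0.31 for Psmc1 (log2).

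The lid held genes that differed in opposite directions. Psmd12, one of its structural subunits, had 580 in CD8+CX3CR1+ DCs, 957 in CD8+CX3CR1- DCs, 356 in CD4+ DCs and 662 in DN DCs, and was 2.69-fold higher in CD8+CX3CR1- than in CD4+ DCs. Psmd7, which pairs with the deubiquitinase Psmd14, was low on 2 arrays, with 104 in CD8+CX3CR1+ DCs, 205 in CD8+CX3CR1- DCs, 201 in CD4+ DCs and 123 in DN DCs. It was 1.96-fold lower in CD8+CX3CR1+ than in CD8+CX3CR1- DCs, just short of the 2-fold threshold. Psmd8 ran the other way and was lowest in CD8+CX3CR1- DCs, with 1013 in CD8+CX3CR1+ DCs, 713 in CD8+CX3CR1- DCs, 967 in CD4+ DCs and 1170.2 in DN DCs. It had the highest difference of the whole set in CD8+CX3CR1+ over CD8+CX3CR1- DCs, 1.42-fold. The lid's median was -0.62 in that pair, 0.16 in CD8+CX3CR1- over CD4+ DCs and 0.01 in CD8+CX3CR1+ over CD4+ DCs.

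Of the other regulators of the barrel, Psme3, the activator of the nucleus that interferon does not induce, had 385 in CD8+CX3CR1+ DCs, 736 in CD8+CX3CR1- DCs, 420 in CD4+ DCs and 517 in DN DCs. Psme4, an activator known for its role in the testis, was highest in DN DCs by its brightest probe set, with 772 in CD8+CX3CR1+ DCs, 894 in CD8+CX3CR1- DCs, 699 in CD4+ DCs and 1127 in DN DCs. A dimmer probe set of Psme4 was highest in CD8+CX3CR1- DCs, at 290.4, with 285.9 in DN DCs. Another was highest in CD4+ DCs, at 263.8, and lowest in DN DCs, at 196.3. Psmf1, an inhibitor of the barrel in vitro, had 203 in CD8+CX3CR1+ DCs, 335 in CD8+CX3CR1- DCs, 319 in CD4+ DCs and 188 in DN DCs.

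The assembly chaperones showed another profile, with CD4+ DCs at the low end for 5 of the 7. Their median was -0.03 in CD8+CX3CR1+ over CD8+CX3CR1- DCs, 0.46 in CD8+CX3CR1- over CD4+ DCs, with all 7 above 0, and 0.34 in CD8+CX3CR1+ over CD4+ DCs, with 6 of 7 above 0. Psmg1, which helps build the alpha ring, had 274 in CD8+CX3CR1+ DCs, 394 in CD8+CX3CR1- DCs, 195 in CD4+ DCs and 320.0 in DN DCs, 2.02-fold higher in CD8+CX3CR1- than in CD4+ DCs. The tissue-specific subunits were near or under the floor. The thymus subunit Psmb11 lay under it on all 4 arrays, and the testis subunit Psma8 lay at 62.2 to 63.4 on 3 arrays and under it in CD8+CX3CR1- DCs. The name matches Psmc3ip, a meiotic recombination factor, and Psme3ip1, a partner of Psme3, spanned 1.48-fold and 1.10-fold.

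The MHC class I genes split into chains and loading machinery. As deposited, the brightest probe sets of the chains were highest in CD4+ DCs. B2m, the light chain, had 9353 in CD8+CX3CR1+ DCs, 10437 in CD8+CX3CR1- DCs, 12155 in CD4+ DCs and 10058 in DN DCs. The heavy chain gene H2-K1 had 13035 in CD8+CX3CR1+ DCs, 14619 in CD8+CX3CR1- DCs, 18486 in CD4+ DCs and 15252 in DN DCs, and H2-D1 had 7407, 7196, 9759 and 6741 in the same order of arrays. The spans were 1.30-fold, 1.42-fold and 1.45-fold. With equal medians B2m and H2-K1 were instead highest in CD8+CX3CR1- DCs, and with quantile normalization H2-K1 was highest in DN DCs. A second bright probe set of H2-D1 had 5477 in CD8+CX3CR1+ DCs, 6075 in CD8+CX3CR1- DCs, 6039 in CD4+ DCs and 5462 in DN DCs, and another was highest in CD8+CX3CR1+ DCs, at 1149.8. The array with the highest chain signal thus depended on the scaling and the probe set. H2-K1 and H2-D1 belong to a family of near-identical genes and their chosen probe sets are of the type that can bind several of them, so signal of 1 may be counted for the other.

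The 7 other genes were all highest in CD8+CX3CR1- DCs as deposited, by their brightest probe sets. Tap1, 1 chain of the peptide transporter, had 1084 in CD8+CX3CR1+ DCs, 2008 in CD8+CX3CR1- DCs, 1133 in CD4+ DCs and 1193 in DN DCs. Tap2, the other chain, had 227 in CD8+CX3CR1+ DCs, 494 in CD8+CX3CR1- DCs, 327 in CD4+ DCs and 299.5 in DN DCs. In CD8+CX3CR1+ against CD8+CX3CR1- DCs Tap1 was 1.85-fold lower and Tap2 2.17-fold lower, and for Tap1 the other 3 arrays lay within 1.10-fold of each other. The 3 other probe sets of Tap1 lay under the floor on at least 3 arrays each. Psmb9, on the far side of the shared start region, did not have that shape, as its CD4+ signal was 1.67-fold above its CD8+CX3CR1+ signal.

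Pdia3, the disulfide isomerase of the loading complex, had 1035 in CD8+CX3CR1+ DCs, 2890.0 in CD8+CX3CR1- DCs, 940.4 in CD4+ DCs and 1031 in DN DCs. It was 2.79-fold lower in CD8+CX3CR1+ than in CD8+CX3CR1- DCs, and in CD8+CX3CR1- DCs it was 3.07-fold higher than in CD4+ and 2.80-fold higher than in DN DCs. It was the 1 gene of the 57 at least 2-fold above all other arrays in CD8+CX3CR1- DCs, as were 2.45% of the 7761 genes. Its second, dim probe set had 56.9 in CD8+CX3CR1+ DCs, 108 in CD8+CX3CR1- DCs, 38.7 in CD4+ DCs and 63.6 in DN DCs.

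Tapbp, or tapasin, which bridges the transporter and the class I chain, had 3244 in CD8+CX3CR1+ DCs, 4565 in CD8+CX3CR1- DCs, 3177 in CD4+ DCs and 3145 in DN DCs. Its second, dim probe set had the opposite order, with 108 in CD8+CX3CR1+ DCs and 61.7 in CD8+CX3CR1- DCs. Tapbpl, a tapasin relative that edits peptides outside the loading complex, had 213 in CD8+CX3CR1+ DCs, 529 in CD8+CX3CR1- DCs, 240.3 in CD4+ DCs and 338 in DN DCs. It was 2.48-fold lower in CD8+CX3CR1+ than in CD8+CX3CR1- DCs, and 2.20-fold higher in CD8+CX3CR1- than in CD4+ DCs. Both tapasin genes were thus highest on the same array, by unequal amounts.

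Erap1, the aminopeptidase that trims peptides in the endoplasmic reticulum, had 187 in CD8+CX3CR1+ DCs, 335 in CD8+CX3CR1- DCs, 173 in CD4+ DCs and 181 in DN DCs. Nlrc5, the transactivator of MHC class I genes, had 517 in CD8+CX3CR1+ DCs, 1004 in CD8+CX3CR1- DCs, 627 in CD4+ DCs and 689 in DN DCs. Over the 10 class I genes the median log2 difference was -0.87 in CD8+CX3CR1+ over CD8+CX3CR1- DCs, 0.64 in CD8+CX3CR1- over CD4+ DCs and -0.23 in CD8+CX3CR1+ over CD4+ DCs. The first 2 of these medians depended on the probe sets, since they came to -0.21 and 0.072 with each gene averaged over its probe sets, several of which lie under the floor.

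**Figure D4:**
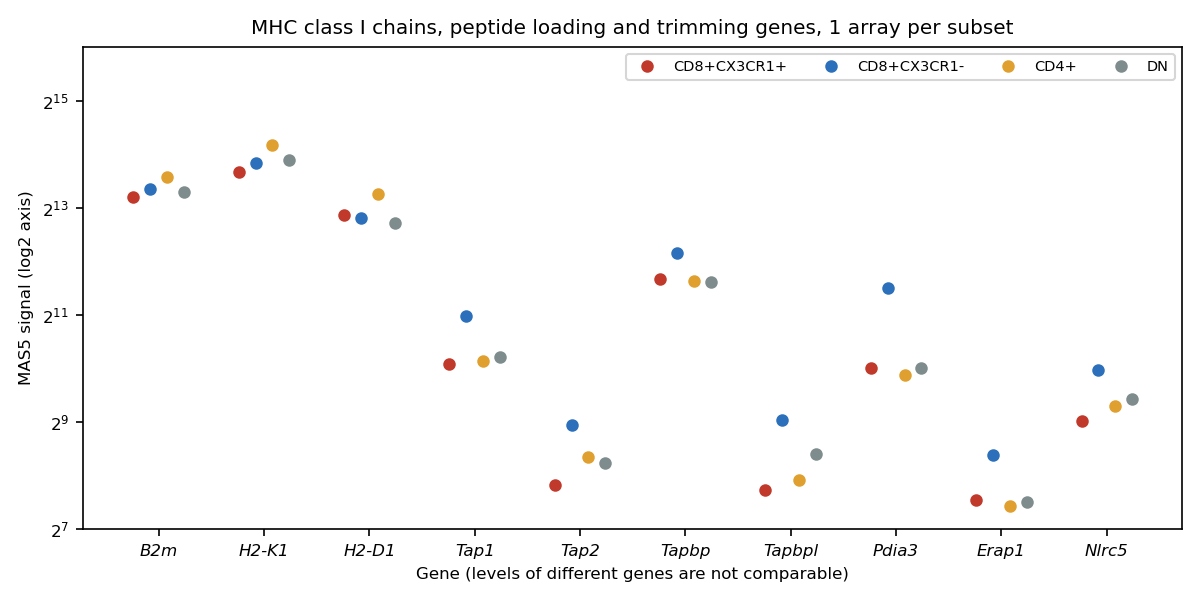
MAS5 signal (log2 axis) of the 10 MHC class I genes on the 4 arrays, 1 point per array. As deposited, the chains B2m, H2-K1 and H2-D1 are highest in CD4+ DCs, which for B2m and H2-K1 is not so with equal medians, and Tap1, Tap2, Tapbp, Tapbpl, Pdia3, Erap1 and Nlrc5 in CD8+CX3CR1- DCs.

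Other genes of folding, ubiquitin handling and regulation were read beside them. Of 40 such genes, 33 had a probe set of their own. In CD8+CX3CR1+ against CD8+CX3CR1- DCs 0 of them were higher by 2-fold or more and 6 were lower (7.72% and 5.81% of all detected genes), the median being -0.36, and in CD8+CX3CR1- over CD4+ DCs 8 were higher and 0 lower (6.78% and 9.11%), with a median of 0.19. In CD8+CX3CR1+ over CD4+ DCs 1 was higher and 2 lower (4.47% and 4.89%), with a median of -0.06. Irf8, the transcription factor required for CD8+ DCs, had the largest difference, with 1409 in CD8+CX3CR1+ DCs, 13285 in CD8+CX3CR1- DCs, 617 in CD4+ DCs and 4847 in DN DCs. Irf8 was lower in CD4+ than in DN DCs, while Psmb8 and Psmb9 were higher by their brightest probe sets. By its dim probe set Psmb8 too was lower in CD4+ DCs (89.6) than in DN DCs (124).

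Cd1d1, a class I-like molecule that presents lipids, had 1024 in CD8+CX3CR1+ DCs, 4606 in CD8+CX3CR1- DCs, 1476 in CD4+ DCs and 1647 in DN DCs. Hsp90b1, a chaperone of the endoplasmic reticulum, had 927 in CD8+CX3CR1+ DCs, 1853 in CD8+CX3CR1- DCs, 542 in CD4+ DCs and 1054 in DN DCs. Rfxap, a subunit of the factor that binds MHC promoters, had 377 in CD8+CX3CR1+ DCs, 771 in CD8+CX3CR1- DCs, 264 in CD4+ DCs and 319 in DN DCs. In all 3 genes the signal in CD8+CX3CR1- DCs stood above the others.

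Lap3, a cytosolic aminopeptidase, had 249 in CD8+CX3CR1+ DCs, 580.0 in CD8+CX3CR1- DCs, 241 in CD4+ DCs and 275 in DN DCs. The ATPase gene Vcp, whose product extracts proteins for degradation, had 1702 in CD8+CX3CR1+ DCs, 3068 in CD8+CX3CR1- DCs, 1356 in CD4+ DCs and 1683 in DN DCs. Pomp, which matures the beta ring and was singled out after its values were seen, had 2055 in CD8+CX3CR1+ DCs, 4589 in CD8+CX3CR1- DCs, 2084 in CD4+ DCs and 1960.1 in DN DCs. These 3 had their highest signal in CD8+CX3CR1- DCs as well.

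Interferon-stimulated genes, a list that includes Ifit, Oas and Mx genes, had medians of the opposite sign to those of the immunoproteasome genes in 3 pairs of arrays and of the same sign in the other 3. Of 15 of them on the array, 6 were at least 2-fold higher and 2 lower in CD8+CX3CR1+ against CD8+CX3CR1- DCs (7.72% and 5.81% of all detected genes). The median was 0.73, where the 4 immunoproteasome genes had -1.15. Mx1 and Mx2 were the 2 lower genes, at -1.35 and -1.19 (log2), and so had the sign of the immunoproteasome genes. Oasl1 and Irf7 were also below 0 there, by less than 2-fold. Mx1, Mx2 and Oasl1 had their highest signal in CD8+CX3CR1- DCs, and Mx2 was above the floor there alone. In CD8+CX3CR1- against CD4+ DCs 1 of the 15, Mx2, was higher and 11 were lower (6.78% and 9.11% of all detected genes). The median was -2.41, where the immunoproteasome genes had 0.36. In CD8+CX3CR1+ against CD4+ DCs 0 of the 15 were higher and 10 lower (4.47% and 4.89% of all detected genes). Both medians were below 0 there, -1.66 for the 15 and -0.67 for the immunoproteasome genes. The medians were -0.92 and -0.27 in CD8+CX3CR1+ over DN DCs, -1.42 and 0.70 in CD8+CX3CR1- over DN DCs and 0.73 and 0.34 in CD4+ over DN DCs, the interferon-stimulated list first. Their summed signal was 2896 in CD8+CX3CR1+ DCs, 2190 in CD8+CX3CR1- DCs, 9566 in CD4+ DCs and 5575 in DN DCs. The transcription factor gene Irf1, which interferon gamma induces and which was singled out after its values were seen, had 813 in CD8+CX3CR1+ DCs, 1194 in CD8+CX3CR1- DCs, 1779 in CD4+ DCs and 1585 in DN DCs.

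Markers of other cells also differed between the arrays. Of 7 plasmacytoid DC markers, 6 lay above the floor in CD8+CX3CR1+ DCs and 5 on each other array, with summed signals of 7812 in CD8+CX3CR1+ DCs, 914 in CD8+CX3CR1- DCs, 1409 in CD4+ DCs and 2640 in DN DCs. The marker Ly6d was under the floor on all 4 arrays, and Siglech was under it in CD4+ and DN DCs. Of 10 red pulp macrophage markers, 8 were above the floor in CD8+CX3CR1+ DCs, 5 in CD8+CX3CR1- DCs, 8 in CD4+ DCs and 4 in DN DCs, with summed signals of 2490.1, 985, 4322 and 2120.2 in that order. Most of the sum in CD4+ and DN DCs came from Adgre1 alone. It had 578.5 in CD8+CX3CR1+ DCs, 143.1 in CD8+CX3CR1- DCs, 3068 in CD4+ DCs and 1692 in DN DCs. Summed B cell markers were 1077 in CD8+CX3CR1+ DCs, 545 in CD8+CX3CR1- DCs, 793 in CD4+ DCs and 398 in DN DCs, with Cd79a under the floor on all 4 arrays. Of 9 markers of CD4+ and CD11b+ DCs, 8 were above the floor in CD8+CX3CR1+ DCs, 3 in CD8+CX3CR1- DCs, 8 in CD4+ DCs and 9 in DN DCs. The part of such cells in the differences of the proteasome and MHC class I genes was not tested.

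Among 3572 other genes with a span of at least 2-fold, the 5 whose 4 centred log2 signals lay nearest to the mean profile of Psmb8, Psmb9 and Psmb10 were Tmem62, Abca3, Lss, Fuca2 and Cops7a. Their root mean square distances over the 4 arrays ran from 0.04 to 0.06 (log2). Abca3, a lipid transporter gene, had 1195 in CD8+CX3CR1+ DCs, 2480 in CD8+CX3CR1- DCs, 1981 in CD4+ DCs and 1694 in DN DCs. Over 4 arrays such likeness is a description. The mean profile joins Psmb8 and Psmb9 with the nearly level Psmb10, and so is the profile of none of these subunits.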

How the data were processed

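The deposited values are probe set intensity (MAS5 signal, linear scale) of 4 arrays, per the submitters' processing notes, which name no MAS5 version. The mean of each array after trimming was 150.0, so the arrays had been scaled as wholes. Of 45101 probe sets, 34945 have 1 gene symbol in the platform's annotation and were used. The 932 with several symbols, 9160 with none and 64 controls were not, 4 of the shared ones carrying a symbol described here. The floor of 55.7 came from 127 probe sets. Its counterpart on single arrays ran from 46.0 to 62.6. Differences are log2 of floored signal, first array minus second, in 6 pairs.

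With 1 array per group no test was made, and the number of arrays limits the precision. The genes, lists and tests were chosen with earlier results of these data known. Values on every array are given for the immunoproteasome genes and their counterparts, all MHC class I genes and any gene 2-fold apart in the comparisons among the CD8+CX3CR1+, CD8+CX3CR1- and CD4+ arrays. They are also given for most of the extreme constitutive subunits, up to 6 related genes and, of the nearest profiles, Abca3. The extreme subunits Psma3, Psmc1 and Psmd2 have a difference alone. Pomp, Irf1, the values of Adgre1 and the other probe sets of a gene were named after their values were seen. The alternatives were quantile normalization, equal medians, other floors or none, averaged probe sets, no _x, _s or _a probe sets, a 4-fold threshold and the catalytic subunits alone. Others, added after seeing the data, were the shared Psme2 probe set, the counts of genes highest on an array under these settings, and bright genes as a background. The steps were tested on simulated data. Python 3.11.15, numpy 2.4.6, pandas 2.3.3 and matplotlib 3.10.9 were used.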

Additional observations from a re-analysis of the deposited data

How the results depend on the processing

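No paired analysis was possible because each group has 1 array. The immunoproteasome median in CD8+CX3CR1+ over CD8+CX3CR1- DCs ran from -1.17 to -0.96 and the constitutive one from -0.60 to -0.43. Their gap ran from -0.76 to -0.38 in that pair and from -0.69 to -0.46 in CD8+CX3CR1+ over CD4+ DCs. The constitutive and MHC class I medians of CD8+CX3CR1+ over CD4+ DCs changed sign, with ranges of -0.10 to 0.29 and -0.26 to 0.11.

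With probe sets averaged, the MHC class I median was -0.21 in CD8+CX3CR1+ over CD8+CX3CR1- DCs and 0.072 in CD8+CX3CR1- over CD4+ DCs. Under that averaging 1 gene, Psmc1, was past 2-fold upwards in CD8+CX3CR1+ over CD8+CX3CR1- DCs. The averaging took signals before the floor was applied. The other probe set of Psmc1 lay under the floor on both arrays, with 41.4 in CD8+CX3CR1+ DCs and 4.6 in CD8+CX3CR1- DCs. By its brightest probe set Psmc1 had -0.25 (log2) in that pair. In CD8+CX3CR1+ over CD4+ DCs 2 genes were higher and 3 lower. Shares of all genes past 2-fold were not computed with averaging, so these counts have no background. With it 25 of 46 genes were highest in CD8+CX3CR1- DCs, against 30.8% of all genes above the floor on all arrays. With equal medians 16 genes were higher in CD8+CX3CR1- over CD4+ DCs (12.7% of all detected genes), and 2 were higher and 0 lower in CD8+CX3CR1+ over CD4+ DCs, beside 9.44% higher and 2.18% lower of all detected genes under that scaling, which moves the median of all genes above the floor to 0.35 in both comparisons. Without _x, _s and _a probe sets, which leaves out Psmb8, 2 genes were lower in CD8+CX3CR1- over CD4+ DCs. The share of all genes was not computed for that setting either. At 4-fold the counts of 6 lower, 5 higher and 1 lower in these 3 comparisons were 0, by the stricter threshold. For the averaged probe sets and those without _x, _s and _a the cause was not tested. Of 2370 values for single genes 100 moved by more than the spread among probe sets of a gene (root mean square SD of 0.40 to 0.53 by pair, log2). The 2370 include settings that change only the floor. Those could hardly move a value, as 57 of the 59 genes lay above the floor on all 4 arrays.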
